A study of Rattus norvegicus with 12 samples.

Results

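Chromosome segregation depends on a set of proteins that a cell makes mainly while it divides, and 60 of their genes are described here: cyclins and their partners, mitotic kinases, the spindle assembly checkpoint, the anaphase trigger, the chromosomal passenger complex, kinetochore proteins, kinesins, spindle and cytokinesis proteins, condensin and topoisomerase II. The genes were chosen by function, with earlier results of these data known. Each was represented by the probe set whose annotation gives its symbol alone and, where there were several, by the one with the highest mean signal over all arrays. Of the 60 genes, 38 were found among the 12777 probe sets with 1 symbol, and 37 passed a filter on low signals and were tested, among 9745 tested probe sets for 7192 genes. The condensin subunit Smc4 had signals of 57.7 to 157.7, passed the filter on 0 of 12 arrays and was not tested. The other 22 genes were not matched to a probe set of their own and are not analysed here: Ccna2, Nek2, Bub1, Ttk, Incenp, Cenpa, Cenpf, Nuf2, Ndc80, Kif11, Kif20b, Kif23, Kif4a, Tpx2, Nusap1, Ckap2, Prc1, Ect2, Anln, Ncapg, Ncaph and Smc2.

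RNA was measured in 12 cultures with 1 Affymetrix RAE230A array each, 3 cultures in each of 4 groups: arginine-deficient tumor cells, arginine-sufficient tumor cells, arginine-deficient normal cells and arginine-sufficient normal cells. The tumor cells were GP7TB, a line that arose from the normal line through treatment with the carcinogen MNNG and forms tumors in rats. The normal cells were WB-F344, a diploid epithelial line grown from liver of a Fischer 344 rat, male and adult. All cultures were kept for 18 hours in Chee's Essential Medium with 5% fetal bovine serum, either with 0.168 g/l L-arginine HCl or with none added, so that serum remained a source of some arginine in the deficient groups. Each cell type is 1 line. Both lines are called hepatic, but 7 of 9 hepatocyte genes on the array, among them Alb, Apoa1, Ttr and Hnf4a, had signals too low to be tested, and the other 2, Cyp2e1 and Apob, averaged at most 247. Of 6 epithelial genes, Krt18, Krt19, Epcam and Cdh1 were also too low, and Krt7 averaged 249 in arginine-deficient and 291 in arginine-sufficient tumor cells, and 4544 in arginine-deficient and 5845 in arginine-sufficient normal cells. The epithelial keratin Krt8 averaged 7638 in arginine-deficient and 8744 in arginine-sufficient tumor cells, and 3875 in arginine-deficient and 5936 in arginine-sufficient normal cells. Signals, which have no unit, had been scaled by the authors to the same trimmed mean on every array, and a signal passed the filter where it lay in the top 54% of its array, which put the limit at 146 to 191. Of the tested genes, 34 were past it on all 12 arrays, Melk and Cenpw on 10 and Plk4 on 9.

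Mitotic genes are transcribed together, late in the cell cycle. In human cells much of this timing runs through the CHR (cell cycle genes homology region), a short promoter element. The MuvB complex binds it, with repressors in resting cells and with the activators B-MYB and FOXM1 in dividing cells. A CCAAT box, bound by the activator NF-Y, often lies upstream of the CHR.

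Promoters of the rat genes were searched for these elements, as TTTGAA for the CHR and CCAAT for the CCAAT box, on both strands and in windows of 250 bases before and 50 bases after the start site (RefSeq, build GRCr8). Of the 37 tested genes, 32 had such a window. A CHR was found in 23 of these 32 (71.9%), against 675 of the 6078 tested genes with a window (11.1%) and 4962 of all 27457 windows (18.1%). A CCAAT box was found in 24 of 32 (75.0%), against 38.2% of tested genes and 37.7% of all windows. Both elements stood in 18 of 32 windows (56.2%), against 4.74% and 7.25%. In 27 tested genes of DNA replication, the other large group of genes that dividing cells use, 1 window held a CHR and 16 a CCAAT box. Aurka, Melk and Kif2c were the tested genes with neither element. Within 100 bases before or 50 bases after the start, 23 of 32 mitotic genes had a CHR, against 4.18% of the tested genes. The elements overlapped at 2 of the 49 CHR matches found in all the listed genes. A match is a run of letters, not a measured binding site. Other spellings of the CHR were not searched, so a window without a CHR here is one without TTTGAA on either strand.

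The 160 bases before the start site are shown for the 7 genes that fell without arginine in tumor cells and for Bub3, a checkpoint gene with a value above 0. They run from 5′ to 3′ on the strand of the gene, and capitals mark matches to either element in either direction. They lie, in GRCr8, at chr10:63696676-63696835 (Spag5, plus strand), chr10:25665216-25665375 (Hmmr, minus strand), chr2:125730320-125730479 (Plk4, plus strand), chr18:26504262-26504421 (Kif20a, plus strand), chr4:159677939-159678098 (Ncapd2, minus strand), chr1:199952594-199952753 (Mki67, minus strand), chr17:13727520-13727679 (Cks2, minus strand) and chr1:195760372-195760531 (Bub3, plus strand).

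Spag5: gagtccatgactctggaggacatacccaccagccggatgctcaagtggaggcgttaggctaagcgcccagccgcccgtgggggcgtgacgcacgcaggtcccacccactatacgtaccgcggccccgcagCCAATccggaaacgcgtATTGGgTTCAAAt
Hmmr: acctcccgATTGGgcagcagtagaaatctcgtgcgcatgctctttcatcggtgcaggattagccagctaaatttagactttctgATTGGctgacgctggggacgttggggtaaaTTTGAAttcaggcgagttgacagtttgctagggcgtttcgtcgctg
Plk4: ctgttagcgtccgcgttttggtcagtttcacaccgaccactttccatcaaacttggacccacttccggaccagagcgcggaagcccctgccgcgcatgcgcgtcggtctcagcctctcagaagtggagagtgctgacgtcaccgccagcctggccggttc
Kif20a: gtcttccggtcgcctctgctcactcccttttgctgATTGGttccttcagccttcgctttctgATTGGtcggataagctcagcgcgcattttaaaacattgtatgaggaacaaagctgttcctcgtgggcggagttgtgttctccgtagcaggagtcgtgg
Ncapd2: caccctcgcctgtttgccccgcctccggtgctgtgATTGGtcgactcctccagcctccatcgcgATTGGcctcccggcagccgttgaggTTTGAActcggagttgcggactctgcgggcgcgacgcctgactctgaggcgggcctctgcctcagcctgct
Mki67: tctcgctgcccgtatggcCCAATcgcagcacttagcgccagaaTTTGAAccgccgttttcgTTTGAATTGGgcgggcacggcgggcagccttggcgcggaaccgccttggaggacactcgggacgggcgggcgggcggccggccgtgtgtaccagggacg
Cks2: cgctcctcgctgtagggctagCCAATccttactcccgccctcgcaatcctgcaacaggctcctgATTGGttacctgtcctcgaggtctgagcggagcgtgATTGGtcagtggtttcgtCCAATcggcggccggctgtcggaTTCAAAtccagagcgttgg
Bub3: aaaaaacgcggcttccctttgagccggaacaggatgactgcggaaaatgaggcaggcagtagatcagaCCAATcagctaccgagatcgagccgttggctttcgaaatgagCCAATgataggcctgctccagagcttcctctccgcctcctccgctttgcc

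Spag5 carried a CHR starting 7 bases before the start site, with CCAAT boxes at 13 and 30 bases. In Cks2 the CHR stood at 19 bases, behind 4 CCAAT boxes, and in Hmmr at 46 bases. Ncapd2 had its CHR at 71 bases. Mki67 had 2 CHR matches, at 117 and 99 bases, the nearer of which overlapped a CCAAT box by its last base. Kif20a had CCAAT boxes at 98, 125 and 220 bases and no match to TTTGAA. Plk4 had neither element before the start site, and its CHR stood 18 bases after it. Bub3 had CCAAT boxes at 50, 92 and 242 bases and no match to TTTGAA. A CHR was thus present in 6 of the 7 genes that fell and in 17 of the 25 other tested genes with a window (68.0%).

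**Figure D1:**
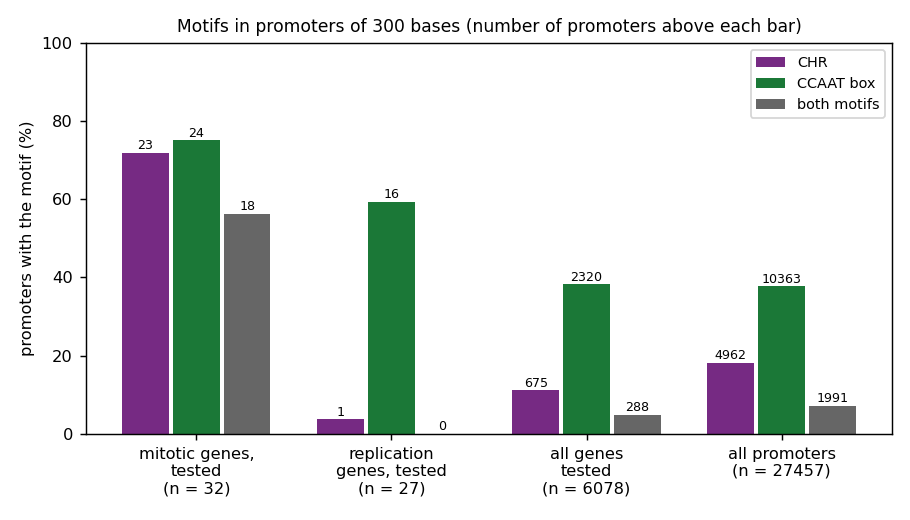
Share of promoter windows (%) with a CHR, a CCAAT box or both, in tested mitotic genes, tested replication genes, all tested genes and all promoters in the table. Bars start at 0 and the number above each is its count of windows. The CHR was in 23 of 32 mitotic windows and in 1 of 27 replication windows.

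Arginine deficiency in tumor cells came with lower signals across the mitotic genes. Of the 37, 35 had a log2 change below 0, and their median was -0.94, where that of all tested probe sets was -0.05. With limma's test and adjustment over all tested probe sets (threshold 0.05 on the adjusted p), 7 fell and 0 rose: Spag5, Kif20a, Plk4, Ncapd2, Mki67, Cks2 and Hmmr. This is 7 of 37, where 0.944% of all tested probe sets fell. Signals of the deficient group lay wholly below those of the sufficient group in 28 of 37 genes, against 13.6% of all probe sets. With the experiment as a block in the model, which compares the arrays of each experiment with each other, 29 genes fell, against 6.18% of all probe sets. By role, the median change was -1.22 over 4 mitotic kinases, -1.21 over 4 genes of the anaphase trigger and -0.94 over 5 kinesins, and nearest to 0 over 3 checkpoint genes, at -0.34. In cultures of whole cells, fewer cells in mitosis and less RNA per cell cannot be told apart.

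The largest fall was that of Spag5 (astrin), which links microtubules to kinetochores and keeps the spindle in shape. It had 243.6, 253.1 and 396.8 in arginine-deficient tumor cells of experiments 1 to 3, against 1043.8, 1089.1 and 809.5 in arginine-sufficient tumor cells. Every deficient signal was more than 2-fold below every sufficient one, which of the 37 genes held for this 1 alone. The log2 change was -1.74 ± 0.32 (SE, n = 3 arrays per group, adjusted p = 0.0168). Here and below, ± gives the SE of the fit without the block, also where a p-value of the blocked fit stands beside it. Hmmr, a spindle pole protein that binds hyaluronan outside cells, had 356.0, 336.3 and 352.9 in deficient cells and 741.1, 803.2 and 657.0 in sufficient cells. The deficient signals were nearly equal and well apart from the others, and the log2 change was -1.07 ± 0.22 (adjusted p = 0.0284). A second probe set for Hmmr gave -0.31 ± 0.25 (adjusted p = 0.608), with 578.6, 453.5 and 436.1 in deficient cells against 689.9, 681.3 and 467.6 in sufficient cells. The probe sets of Hmmr therefore differ, and only that with the slightly higher mean signal passed. Dlgap5 (HURP), which stabilizes the microtubules that hold chromosomes, had 669.8, 748.2 and 807.2 in deficient cells and 1113.1, 1110.5 and 1159.7 in sufficient cells. Its groups did not overlap, but its log2 change of -0.61 ± 0.23 passed only in the blocked fit (adjusted p = 0.0239, against 0.219).

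Among the kinases, Plk4, which starts the duplication of centrioles, had 117.4, 98.7 and 106.5 in arginine-deficient tumor cells, against 366.1, 330.8 and 226.1 in arginine-sufficient tumor cells. All 3 deficient signals were below the filter threshold, and the log2 change was -1.49 ± 0.27 (adjusted p = 0.0168). Plk1, which drives entry into mitosis and the maturation of centrosomes, had 465.6, 846.1 and 1009.5 in deficient cells and 1248.4, 1743.9 and 1764.6 in sufficient cells. The log2 changes of Plk1 (-1.09 ± 0.33), Melk (-1.35 ± 0.41) and the spindle pole kinase Aurka (-0.93 ± 0.39) passed only with the block, with adjusted p-values of 0.00431, 0.00257 and 0.0148, against 0.117, 0.118 and 0.266 without it. These 4 kinases were lower in all 3 experiments.

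Kif20a (MKLP2), a kinesin that carries the chromosomal passenger complex to the midzone of the anaphase spindle, had 538.2, 461.9 and 855.6 in arginine-deficient tumor cells, against 1354.7, 1985.5 and 2350.2 in arginine-sufficient tumor cells. The log2 change was -1.63 ± 0.36 (adjusted p = 0.0382). The other kinesins had smaller changes. Kif2c (MCAK), which takes microtubules apart, changed by -1.12 ± 0.35, Kif15, which helps to hold spindle poles apart, by -0.94 ± 0.31 and Kif22, a chromokinesin, by -0.75 ± 0.30. These values passed only with the block (adjusted p = 0.0105, 0.0106 and 0.0119, against 0.135, 0.149 and 0.236). On a second probe set Kif2c gave -1.40 ± 0.35 (adjusted p = 0.0604). Kifc1, a minus-end kinesin that focuses spindle poles, had 810.9, 1138.3 and 1306.8 in deficient cells and 1178.9, 1314.3 and 1255.8 in sufficient cells. Its groups overlapped, and its log2 change of -0.23 ± 0.27 did not pass in either fit.

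Of the condensin subunits, which compact chromosomes, Ncapd2 was the one tested. It had 282.8, 304.6 and 390.2 in arginine-deficient tumor cells, against 691.2, 808.4 and 798.5 in arginine-sufficient tumor cells, and fell by 1.24 ± 0.27 on the log2 scale (adjusted p = 0.0337). Top2a, topoisomerase II alpha, untangles sister DNA. Its signals were 898.5, 653.6 and 882.4 in deficient cells and 1748.8, 1867.2 and 1171.4 in sufficient cells, a log2 change of -0.96 ± 0.33 that passed only with the block (adjusted p = 0.0143, against 0.171). A second probe set for Top2a gave -1.49 ± 0.38 (adjusted p = 0.0614).

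Mki67 encodes Ki-67, the coat protein of mitotic chromosomes used as a marker of dividing cells. It had 491.1, 465.2 and 667.0 in arginine-deficient tumor cells, against 1526.7, 1439.2 and 911.8 in arginine-sufficient tumor cells. In experiment 3 the gap was narrow, and the log2 change was -1.24 ± 0.29 (adjusted p = 0.0446). Foxm1, the transcription factor that drives many of these genes, had 386.4, 403.7 and 472.1 in deficient cells and 784.3, 866.0 and 760.0 in sufficient cells. Its groups did not overlap, and its log2 change of -0.94 ± 0.25 passed with the block (adjusted p = 0.00726, against 0.0802).

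Among the partners of CDK1, the kinase of mitotic entry, the small binding protein Cks2 had 1168.8, 1008.7 and 1343.3 in arginine-deficient tumor cells, against 2689.0, 3193.9 and 2399.1 in arginine-sufficient tumor cells. Cks2 fell by 1.23 ± 0.27 on the log2 scale (adjusted p = 0.0338). Cdca3, which helps degrade the inhibitor of mitotic entry WEE1, had 999.1, 1616.0 and 2236.3 in deficient cells and 2508.3, 3886.9 and 4246.6 in sufficient cells. The log2 changes of Cdca3 (-1.17 ± 0.31), the cyclin Ccnb2 (-1.02 ± 0.32) and Cks1b (-0.53 ± 0.27) passed only with the block (adjusted p = 0.00131, 0.0111 and 0.0167, against 0.0746, 0.138 and 0.367). For Cks1b a second probe set, with a mean signal of 318, gave -0.05 ± 0.36 (adjusted p = 0.971), so its probe sets differ. Cdk1 itself had 1855.6, 1768.1 and 2285.6 in deficient cells and 2664.0, 2603.0 and 2518.8 in sufficient cells. The groups did not overlap, yet the difference was small, at -0.41 ± 0.28, and did not pass in either fit (adjusted p = 0.545, and 0.0649 with the block). Its main cyclin, Ccnb1, likewise gave -0.30 ± 0.29 (adjusted p = 0.688, and 0.205 with the block). On a second probe set Ccnb1 gave -0.84 ± 0.31 (adjusted p = 0.193).

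At the exit from metaphase, the anaphase-promoting complex, switched on by Cdc20, marks securin (Pttg1) and cyclin B for destruction and so frees separase (Espl1). In this group, 0 of the 4 tested genes (Cdc20, Pttg1, Espl1 and Ube2c) passed without the block, and 4 did with it. Cdc20 had 490.5, 753.0 and 866.8 in arginine-deficient tumor cells and 1550.3, 2065.0 and 1641.7 in arginine-sufficient tumor cells, a log2 change of -1.35 ± 0.39 (adjusted p = 0.102, and 0.000904 with the block). Espl1 changed by -1.33 ± 0.32 (adjusted p = 0.0515, and 0.00725), Pttg1 by -1.10 ± 0.33 (0.118, and 0.00471) and the ubiquitin-conjugating enzyme Ube2c by -0.70 ± 0.33 (0.341, and 0.00498). Ube2c had 1730.6, 1993.2 and 2389.8 in deficient cells and 2762.7, 3406.7 and 3716.5 in sufficient cells. Of the other probe sets of Cdc20, the brightest gave -1.10 ± 0.34 (adjusted p = 0.118). A dimmer one, with a mean signal of 154, gave -0.39 ± 0.35 (adjusted p = 0.655). The rest had mean signals of 97.2 and 100 and were not tested.

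The spindle checkpoint, which holds back that trigger until every kinetochore is attached, varied more. Bub1b (BubR1) changed by -0.96 ± 0.31 (adjusted p = 0.138, and 0.0157 with the block) and Mad2l1 by -0.34 ± 0.27, which passed in neither fit. Bub3, their partner, had 2089.5, 2737.9 and 3216.0 in arginine-deficient tumor cells and 2310.9, 1993.7 and 2796.5 in arginine-sufficient tumor cells. The groups overlapped, and the log2 change was 0.17 ± 0.18 (adjusted p = 0.714). Among kinetochore proteins, Zwint, which brings dynein and the checkpoint to the kinetochore, had 4059.7, 2894.8 and 2516.5 in deficient cells and 4018.8, 2723.6 and 1952.0 in sufficient cells. Its log2 change was 0.16 ± 0.24 (adjusted p = 0.827). Bub3 and Zwint were the 2 genes above 0, and Zwint was below 0 (-0.04 or -0.10) when the deficient array of experiment 1 or the sufficient array of experiment 3 was omitted. The NDC80 complex subunits Spc24 (-0.78 ± 0.30) and Spc25 (-0.94 ± 0.38) and the centromere protein Cenpw (-1.41 ± 0.52) passed with the block alone (adjusted p = 0.0109, 0.00855 and 0.00381).

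Of the chromosomal passenger complex, which corrects wrong attachments, survivin (Birc5) changed by -0.88 ± 0.31 and passed with the block (adjusted p = 0.00783, against 0.169). Cdca8 (borealin) had 826.9, 1038.6 and 1084.5 in arginine-deficient tumor cells and 981.8, 1647.6 and 1667.8 in arginine-sufficient tumor cells. Neither Cdca8 (-0.51 ± 0.28) nor the kinase Aurkb (-0.51 ± 0.40) passed in either fit. Racgap1, which builds the central spindle for cytokinesis, had 670.1, 961.1 and 1356.2 in deficient cells and 1282.6, 1949.5 and 1643.5 in sufficient cells. Its log2 change of -0.74 ± 0.41 passed with the block (adjusted p = 0.0197, against 0.419).

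**Figure D2:**
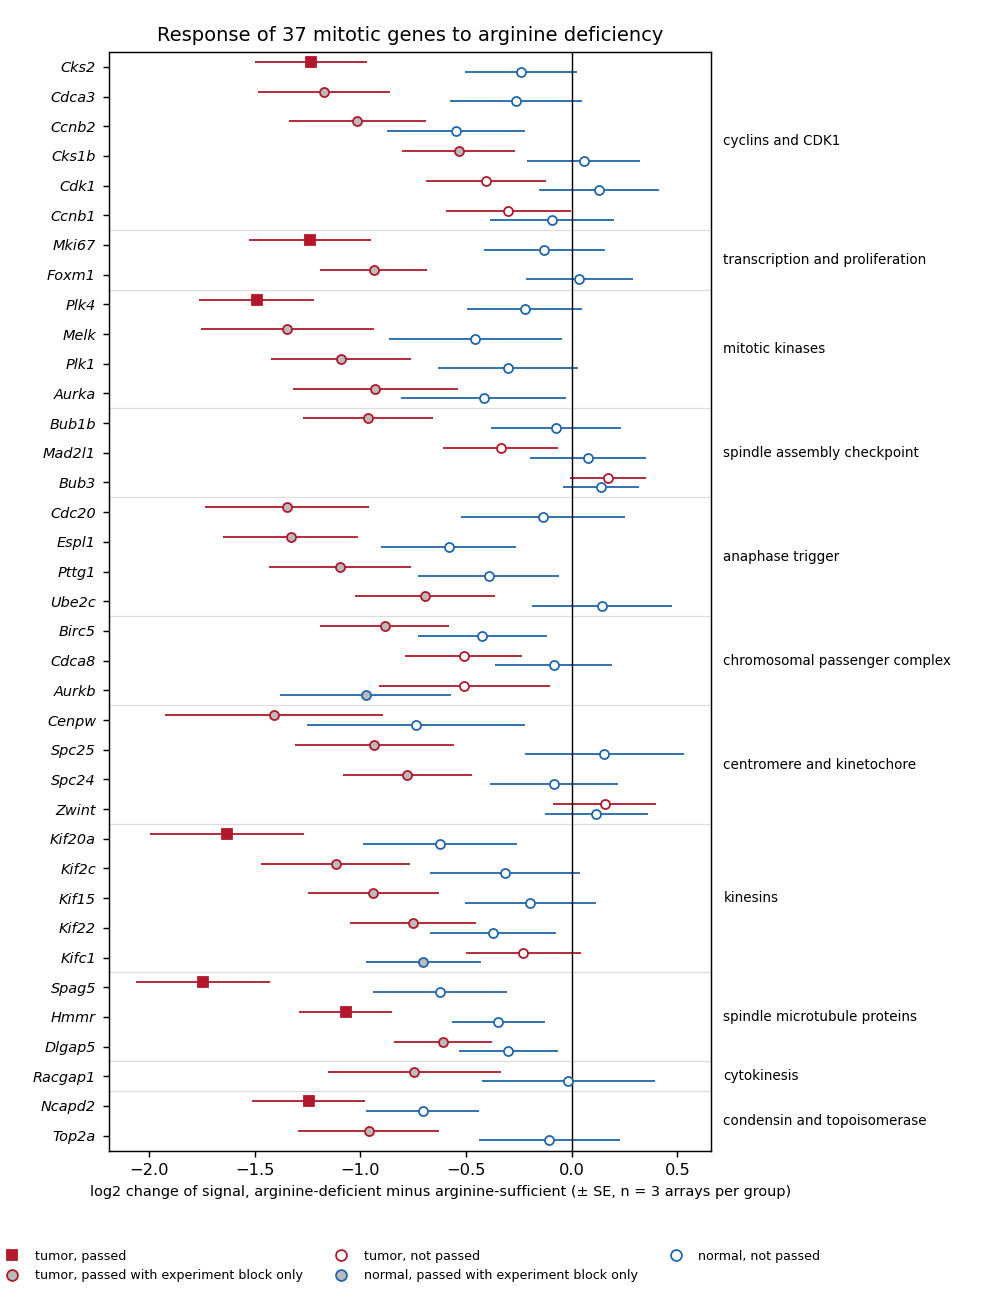
Log2 change of signal without arginine (± SE, n = 3 arrays per group) for the 37 tested genes by role, tumor cells in red above normal cells in blue. Squares passed in the fit without a block, grey circles only with the experiment as a block. Red points lie below 0 for 35 genes, and the exceptions are Bub3 and Zwint.

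**Figure D3:**
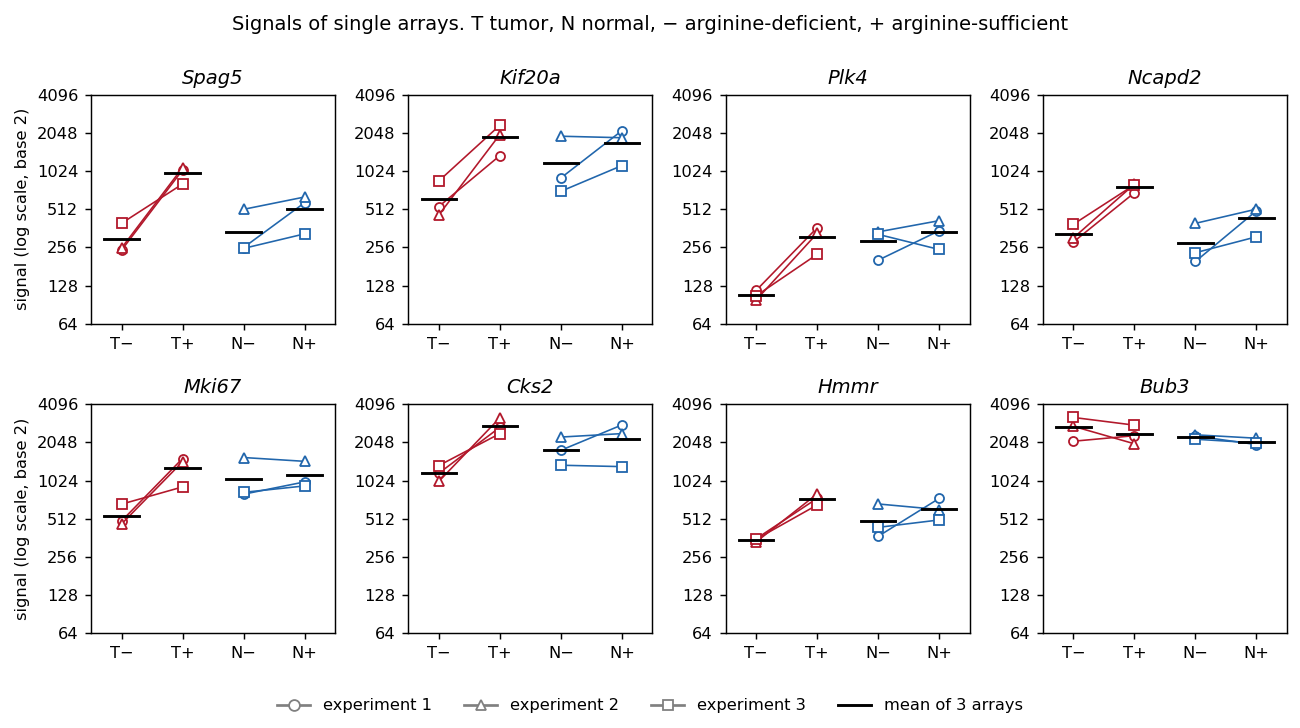
Signals of single arrays (log scale, base 2) for the 7 genes that fell and for Bub3. T is tumor, N normal, a minus sign arginine-deficient and a plus sign arginine-sufficient, lines join the arrays of 1 experiment, and bars are means. The groups T- and T+ do not overlap in the 7 genes and overlap in Bub3.

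In tumor cells the size of the differences varied among the experiments, and their direction rarely did. The median log2 ratio of the 37 genes was -1.06 in experiment 1, -1.02 in experiment 2 and -0.65 in experiment 3. Genes at or beyond 2-fold lower numbered 21, 19 and 6 of 37, against 4.48%, 4.81% and 3.10% of all probe sets. In all 3 experiments 34 genes were lower (background 28.6%) and 1, Zwint, was higher. The run records say that trypsin was used in experiments 1 and 3 and not in experiment 2, for both arrays of each pair. Without both arrays of experiment 2 the median was -0.93, and 0 genes passed, with 1 pair fewer in the fit. By a rule that asks for a 2-fold ratio in at least 6 of the 9 comparisons between the groups, 12 genes were lower (background 1.41%). These were the 7 that fell and Cdc20, Cenpw, Espl1, Kif2c and Melk. Within the 2 chip lots of the tumor arrays, which were all scanned on 1 day, the median was -0.76 (2 arrays of each group) and -1.27 (1 of each). The latter value sets the deficient array of experiment 1, with trypsin, against the sufficient array of experiment 2, without trypsin. The number of calls depended on single arrays. It was 0 when either array of experiment 2 or the sufficient array of experiment 1 was left out. It was 2 without the deficient array of experiment 1, 4 without that of experiment 3, and 5 to 10 when any other array was left out. The share of all probe sets that passed in these fits is not given here, so these counts alone do not set the mitotic genes apart. The median stayed between -1.04 and -0.78.

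**Figure D4:**
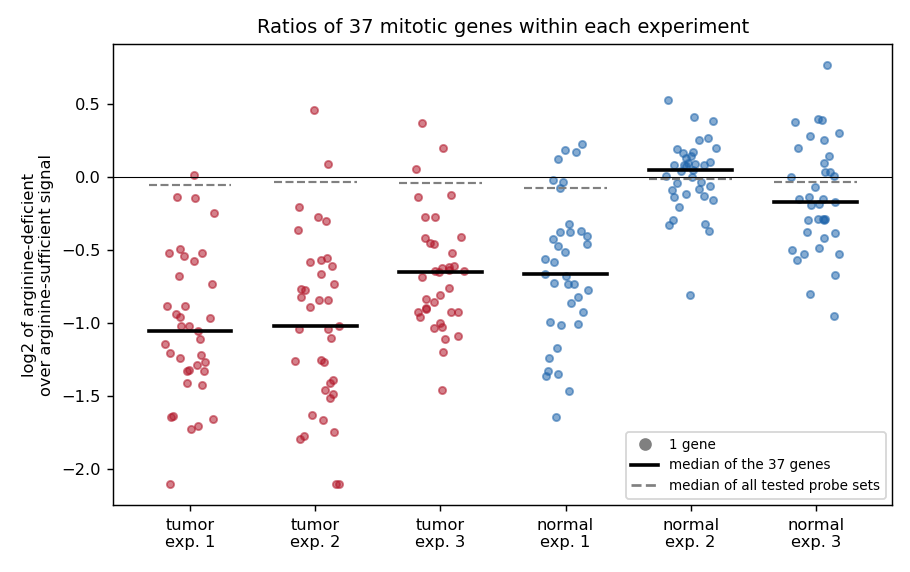
Log2 ratio of arginine-deficient over arginine-sufficient signal for each of the 37 genes (points) within each experiment, tumor cells on the left and normal cells on the right. Solid lines are the medians of the 37 genes and dashed lines those of all tested probe sets. The tumor medians are -1.06, -1.02 and -0.65 and the normal medians -0.66, 0.05 and -0.17.

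In normal cells the mitotic genes gave small and uneven differences. Of the 37, 29 had a log2 change below 0, with a median of -0.24, where that of all tested probe sets was -0.04. This median rested on single arrays: it was -0.49 without the sufficient array of experiment 3, -0.47 without the deficient array of experiment 2, -0.13 without the sufficient array of experiment 2 and -0.05 when the deficient array of experiment 3 was omitted. With limma 0 genes passed in either direction, and 3 were lower at an unadjusted p under 0.05 (Aurkb, Kifc1 and Ncapd2), where 523 of all 9745 probe sets were lower and 397 higher at that p. The background of falls was 0.0308% of all probe sets, and the lowest adjusted p among the 37 genes was 0.419. The groups overlapped in all 37 genes, where 7.76% of all probe sets were wholly lower. The median log2 ratio was -0.66 in experiment 1, 0.05 in experiment 2 and -0.17 in experiment 3. In experiment 1, 33 of the 37 genes were lower and 9 were at or beyond 2-fold lower, against 15 and 0 in experiment 2 and 23 and 0 in experiment 3. Of all probe sets, 55.8%, 52.1% and 53.2% were lower in experiments 1 to 3, and 4.13%, 1.33% and 2.76% were at or beyond 2-fold lower. Only 8 genes were lower in all 3 experiments (background 23.2%). Within scan days the median was -0.29 for experiment 1 with the deficient array of experiment 2, and -0.17 for experiment 3. In experiment 2, the arginine-sufficient array was alone on its scan day and in its chip lot, so that its ratio cannot be told apart from these batches.

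Experiment 3 of the normal cells had low mitotic signals in both groups. The geometric mean over the 37 genes was 646, 1082 and 546 in arginine-deficient normal cells of experiments 1 to 3, against 1008, 1075 and 604 in arginine-sufficient normal cells. It was 542, 653 and 801 in arginine-deficient tumor cells, against 1105, 1313 and 1262 in arginine-sufficient tumor cells. The tumor groups were thus apart and the normal groups overlapped. Cdk1 shows this spread among normal cultures, with 2797.7, 3218.1 and 1708.9 in the deficient and 2953.0, 2877.1 and 1385.0 in the sufficient group, and a log2 change of 0.13 ± 0.28. Plk4 had 203.2, 339.7 and 324.7 in deficient and 346.7, 416.2 and 246.8 in sufficient normal cells (-0.22 ± 0.27). Spag5 had 255.5, 511.3 and 251.7 in deficient and 576.2, 639.4 and 327.6 in sufficient normal cells (-0.63 ± 0.32), lower in each pair but not past the test (adjusted p = 0.579).

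Aurkb and Kifc1 fell in normal cells when the experiment entered the model as a block, against 1.03% of all probe sets. Aurkb, the kinase of the chromosomal passenger complex, was picked for its single values after they were seen. It had 225.2, 579.4 and 174.7 in arginine-deficient normal cells, against 704.6, 726.4 and 338.1 in arginine-sufficient normal cells, lower in each pair. Its log2 change was -0.97 ± 0.40 (adjusted p = 0.461, and 0.0408 with the block). Kifc1 had 803.1, 689.8 and 462.0 in deficient and 1336.1, 1206.8 and 684.6 in sufficient normal cells, a log2 change of -0.70 ± 0.27 (adjusted p = 0.436, and 0.0320 with the block). Both genes were among the 8 that did not pass in tumor cells in either fit.

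Whether the response differed between the cell types was tested as an interaction, the change in tumor cells minus the change in normal cells. Of the 37 genes 0 passed, with or without the block, and the lowest adjusted p-values were 0.824 and 0.0831. Of all probe sets, 0% passed with a lower response in tumor cells without the block, and 0.041% with it. The change was more negative in tumor cells for 33 genes, and less so for Aurkb, Kifc1, Bub3 and Zwint. Intervals were wide. For Plk4 the difference was -1.27 ± 0.39 on the log2 scale (95% confidence interval -2.10 to -0.44) and for Spag5 -1.12 ± 0.45 (-2.08 to -0.15), with an adjusted p of 0.824 for both. For Aurkb it was 0.47 ± 0.57 (-0.76 to 1.7) and for Kifc1 0.47 ± 0.38 (-0.35 to 1.30). Without adjustment 7 genes had a difference below 0 with a p under 0.05: Plk4, Cdc20, Spag5, Mki67, Cks2, Foxm1 and Hmmr. Of all 9745 probe sets, 282 had such a difference below 0 and 268 above 0. A p that misses the threshold in a design of 3 arrays per group does not show that the cell types responded alike.

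With arginine, tumor cells had higher signals than normal cells for a part of the mitotic genes. The log2 difference, tumor minus normal, was above 0 in 33 of 37 genes, with a median of 0.43, where that of all probe sets was 0.00. By limma 7 genes were higher (background 16.4%) and 0 lower (background 18.1%), and in 14 the signals of tumor cells lay wholly above those of normal cells (background 24.5%). A share of 7 in 37 is close to the background. Tumor and normal arrays shared no scan day and no chip lot, so neither can be told apart from cell type in this comparison. Melk, a kinase found in dividing cells, had 758.7, 973.5 and 1145.2 in arginine-sufficient tumor cells, against 375.0, 390.6 and 177.6 in arginine-sufficient normal cells. Its log2 difference was 1.67 ± 0.41 (adjusted p = 0.00629). Foxm1 had 784.3, 866.0 and 760.0 in tumor cells and 346.4, 380.2 and 214.9 in normal cells, a log2 difference of 1.40 ± 0.25 (adjusted p = 0.000904). These 2 genes passed under all 23 alternative settings. Spag5 had 1043.8, 1089.1 and 809.5 in tumor cells and 576.2, 639.4 and 327.6 in normal cells (0.98 ± 0.32, adjusted p = 0.0288). Cdca3 had 2508.3, 3886.9 and 4246.6 in tumor cells and 2048.9, 2033.6 and 1424.9 in normal cells (0.93 ± 0.31, adjusted p = 0.0334). Birc5 had 1207.6, 1233.5 and 1217.0 in tumor cells and 726.7, 870.0 and 430.1 in normal cells (0.91 ± 0.31, adjusted p = 0.0334). In each of these genes the normal culture of experiment 3 was the lowest. Ncapd2 had 691.2, 808.4 and 798.5 in tumor cells and 498.4, 513.3 and 310.8 in normal cells (0.83 ± 0.27, adjusted p = 0.0277). Mad2l1 had 523.7, 550.3 and 482.9 in tumor cells and 306.1, 465.7 and 198.2 in normal cells (0.77 ± 0.27, adjusted p = 0.0436). The count was 2 without the arginine-sufficient normal array of experiment 3 or the arginine-sufficient tumor array of experiment 2. It was 3 without the tumor array of experiment 3, 4 without the normal array of experiment 1 and up to 9 without another array. Shares of all probe sets in these fits are not given here.

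Without arginine, the differences between the cell types lay on both sides of 0. Here too, scan day and chip lot cannot be told apart from cell type. The median log2 difference was -0.07, with 17 genes above 0 and 20 below. By limma 4 genes were lower in tumor cells (background 21.2%) and 1 higher (background 19.5%). Signals of tumor cells lay wholly below those of normal cells in 6 genes (background 24.1%) and wholly above in 1 (background 24.5%), so both shares are under the background. Plk4 had 117.4, 98.7 and 106.5 in arginine-deficient tumor cells, against 203.2, 339.7 and 324.7 in arginine-deficient normal cells. Its log2 difference was -1.39 ± 0.27 (adjusted p = 0.00126), while with arginine it was -0.13 ± 0.27. The 3 signals of deficient tumor cells were below the filter threshold, so that the size of the first value is uncertain. The Plk4 signals of the cell types were apart without arginine and overlapped with it. Kif15 had 173.2, 184.7 and 182.3 in tumor cells and 390.6, 575.2 and 280.0 in normal cells (-1.14 ± 0.31, adjusted p = 0.00979). Espl1 had 174.6, 172.2 and 261.2 in tumor cells and 284.6, 624.2 and 336.3 in normal cells (-0.98 ± 0.32, adjusted p = 0.0260). Mki67 had 491.1, 465.2 and 667.0 in tumor cells and 799.0, 1554.6 and 826.0 in normal cells (-0.92 ± 0.29, adjusted p = 0.0207). These 4 genes were lower in every tumor culture than in any normal culture. The gene that was higher in tumor cells was Kifc1, with 810.9, 1138.3 and 1306.8 in tumor cells and 803.1, 689.8 and 462.0 in normal cells (0.75 ± 0.27, adjusted p = 0.0418). No gene passed both with and without arginine. The count was 2 without the arginine-deficient tumor array of experiment 2 and up to 7 without another array, and shares of all probe sets in these fits are not given.

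**Figure D5:**
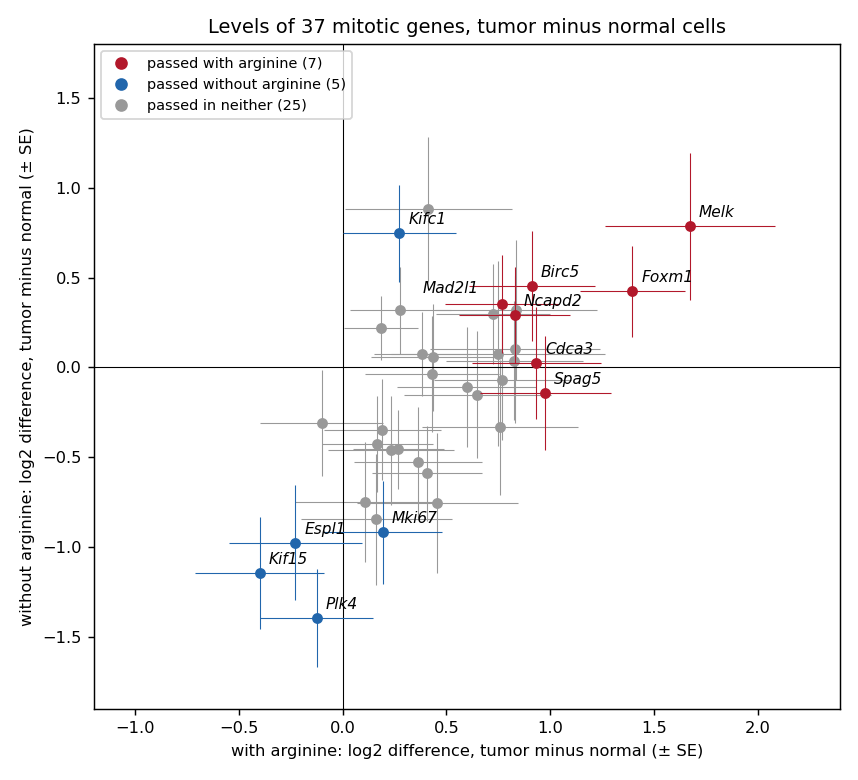
Log2 difference, tumor minus normal cells (± SE, n = 3 arrays per group), with arginine on the horizontal axis and without arginine on the vertical axis, for the 37 genes. Red points passed with arginine and blue points without. Melk is at 1.67 with arginine, and Plk4 is at -1.39 without it.

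Other groups of cell cycle genes had medians nearer to 0 in tumor cells without arginine. Among 30 genes of DNA replication and nucleotide supply the median log2 change was -0.29, with 22 below 0, and 1 fell, the replication protein A subunit Rpa3 (-1.19 ± 0.22, adjusted p = 0.0196). Of 17 other spindle and cytokinesis genes (median -0.24) Depdc1 fell, with 32.5, 35.5 and 62.4 in arginine-deficient tumor cells, against 244.7, 190.9 and 99.1 in arginine-sufficient tumor cells (-2.0 ± 0.42, adjusted p = 0.0290). Its deficient signals are below the filter threshold. The cohesin group, which holds sister chromatids together, had a median of -0.46 over 10 genes with 0 passing, and 3 fell with the block, Smc3 (adjusted p = 0.0490), Rad21 (0.0151) and Pds5b (0.0181). With the block 4 replication genes fell (Rpa3, Tyms, Pole and Tk1), as did 4 of the other spindle genes (Depdc1, Tacc3, Numa1 and Clasp1). Of all 9745 tested probe sets, 602 (6.18%) fell and 467 rose in tumor cells with the block, and 0.944% fell without it. The medians were -0.31 over 11 other kinetochore genes, -0.21 over 14 subunits and regulators of the anaphase-promoting complex, -0.17 over 10 MuvB, RB and E2F genes and -0.09 over 7 regulators of mitotic entry and exit, and 0 genes passed in these 4 groups without the block. With it, 3 kinetochore genes fell (Cenpi, Cenpt and Hjurp) and 1 gene of the anaphase-promoting complex rose (Anapc16). Of 16 CDK inhibitors and growth arrest genes, Cdkn2c (p18), which inhibits the G1 kinases, fell by 1.47 ± 0.22 (adjusted p = 0.00575), and Gadd45a, which is induced by stress, had a log2 change of 2.09 ± 0.53 that passed with the block alone (adjusted p = 0.000644, against 0.0609). With the block, 4 of these 16 fell and 2 rose. Over the 6 tested genes of a list of D-type cyclins and G1 kinases the median was 0.03 and 0 passed. With the block 1 gene rose, Myc (adjusted p = 0.0106), which is on that list but is neither a cyclin nor a kinase. Whether the mitotic genes differ from these groups, or any of these groups from all probe sets, was not tested.

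Signals at the 3′ and 5′ ends of 2 transcripts served as a measure of RNA quality. For Gapdh the signal of the 3′ probe set over that of the 5′ one was 0.998 to 1.38, and in 6 of 6 pairs it was the higher without arginine. For beta-actin it was 1.0 to 1.63, the higher without arginine in 2 of 6 pairs, which were tumor experiment 3 (1.63 without and 1.01 with arginine) and normal experiment 1 (1.41 without and 1.10 with arginine). The part of RNA quality in the falls was not tested. Summed signals of 6 blood and immune markers were 969 to 1978 in arginine-deficient tumor cells and 968 to 1522 in arginine-sufficient tumor cells, and those of 3 endothelial markers were 119 to 164 in deficient and 97.8 to 162 in sufficient tumor cells. The sums of 8 mesenchymal markers were 25231 to 40114 in deficient and 30647 to 42707 in sufficient tumor cells, and those of 9 hepatocyte markers 949 to 1192 in deficient and 990 to 1005 in sufficient tumor cells. The ranges of the 2 tumor groups overlapped for each of these lists, and also for 6 liver epithelial markers (5938 to 10112 in deficient and 6659 to 11591 in sufficient tumor cells). Of the blood and immune markers Cd14 was tested, with means of 1258 in deficient and 897 in sufficient tumor cells, and the 5 others, with the 3 endothelial markers, were too low. With the block, 2 of 7 tested mesenchymal markers fell in tumor cells, Col1a1 (adjusted p = 0.00149) and S100a4 (adjusted p = 0.0119). Of all probe sets, 6.18% fell in that fit. In normal cells the sums of the hepatocyte markers did not overlap, at 593 to 730 without and 819 to 959 with arginine. The part of these markers in the results was not tested.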

How the data were processed

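RNA of 12 cultures was hybridised to 1 Affymetrix RAE230A array each. The authors made intensity values (MAS 5.0 signals) per probe set and scaled each array, and the deposited intensities have trimmed means of 500.122 to 500.162. Signals were used as deposited, floored at 1 and put on the log2 scale. Control probe sets (57) were left out. They were among the 15923 probe sets of the array, and 15866 remained. A probe set was tested if it was among the highest 54% of its array on at least 3 of 12 arrays, which left 9745. Of the 15866 probe sets 12777 carried 1 symbol, 311 several and 2778 none. One linear model with a mean for each of 4 groups was fitted to all arrays in limma 3.58.1 (R 4.3.3), with eBayes and an intensity trend (8 residual degrees of freedom), and p-values were adjusted over all tested probe sets by the Benjamini-Hochberg method, with a threshold of 0.05. Such p-values measure only the spread between these cultures, and the number of arrays limits the precision.

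Groups came from the labels. The experiment number pairs the cultures of a cell type, and was taken from the codes in the run records and the study's account of 3 experiments. Residuals of paired arrays correlated at 0.43, 0.42 and 0.38 in normal cells and at 0.56, 0.037 and 0.42 in tumor cells, so that in tumor cells the pairing of experiment 2 is weak. There the deficient array of experiment 2 correlated more with the sufficient array of experiment 3 (0.275) than with its own pair. Calls of the blocked fit in tumor cells rest on this pairing. A model with a block for experiment was therefore an alternative. Run records gave the labelled arginine state for 10 arrays and none for 2. Genes were named where the paired annotation of a probe set gives 1 symbol, and values of single arrays were given for members that passed in a contrast, for the brightest member of each role and for members whose change in tumor cells was above 0. Signals of Aurkb, Cdc20, Gadd45a and second probe sets, and the genes named only from the blocked fit, were picked after their values were seen. Members and lists were chosen with earlier results of these data known. The model was tested on simulated data. Promoters came from RefSeq (GRCr8) and were matched by gene symbol. The gene identifiers of all 38 genes on the array were in the RefSeq table under the same symbol. A promoter entry was found for 32 of the 37 tested genes. Alternatives were another offset, no filter, a stricter filter, low signals raised to the filter limit, quantile normalization, median centring, no trend and a plain linear model. Others were the mean over the probe sets of a gene, the block, the scan day, the chip lot, the arrays of 1 cell type alone and the 2-fold rule. Each array was also left out, as were both arrays of experiment 2 of a cell type. Not all of their counts are given below.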

Additional observations from a re-analysis of the deposited data

How the results depend on the processing

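Counts of mitotic genes past the threshold in tumor cells depended on the model. In tumor cells 7 genes fell. The count was 3 with no filter, 3 with quantile normalization, 3 with median centring, 3 without the intensity trend and 0 with a plain linear model. It was 2 with the chip lot as a block, 13 with tumor arrays alone, 12 by the 2-fold rule and 29 with the experiment as a block (replicate block). Of all probe sets, 0.944% fell in the main fit, 1.41% by the 2-fold rule and 6.18% with the experiment as a block. Shares under the other settings are not given here, so the other counts cannot be set against all probe sets. The count of mitotic genes was 0 without both tumor arrays of experiment 2, an alternative chosen after seeing the data. It was 0 to 10 when single arrays were left out. In normal cells 0 genes passed, 2 with the experiment as a block and 0 to 0 with single arrays left out. In the comparison of tumor with normal cells with arginine (7 genes) the count was 2 with a plain linear model, 12 without both normal arrays of experiment 2, 2 without both tumor arrays of experiment 2 (both added after seeing the data) and 2 to 9 with single arrays left out. Without arginine (5 genes) it was 2 with a plain linear model, 2 without both tumor arrays of experiment 2 (added) and 2 to 7 with single arrays left out. Median centring put the median of all probe sets, tumor minus normal, at 0.12 with and without arginine, with 8 and 4 mitotic genes past the threshold. For the difference of responses the count was 0 under every alternative run. Medians ranged from -1.04 to -0.78 in tumor cells and from -0.49 to -0.05 in normal cells with single arrays left out, where the value on all arrays was -0.24. In tumor cells 1 of the 37 genes changed sign under any alternative, Zwint (-0.10 and -0.04 without single arrays), and in normal cells 17 did, Cdk1 among them (-0.23). No value that passed changed sign. Among the 7 genes that fell, Spag5 passed under 22 of 27 alternatives, Plk4 under 21 and Mki67 under 12. The causes of the changes in these counts were not tested.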

Other observations

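Among 16 tested CDK inhibitors and growth arrest genes, 5 had a log2 change above 0 and 11 below 0 in tumor cells, and 7 above and 9 below in normal cells. Gadd45a, picked after its values were seen, had 4631.0, 3991.6 and 2553.1 in arginine-deficient tumor cells of experiments 1 to 3, against 1178.3, 927.2 and 556.7 in arginine-sufficient tumor cells. In normal cells it had 2380.6, 359.5 and 1217.6 without arginine, against 354.9, 176.8 and 256.1 with arginine. In both cell types the signals of the deficient arrays lay wholly above those of the sufficient arrays, and the log2 change was 2.09 ± 0.53 in tumor cells and 2.01 ± 0.53 in normal cells (limma, adjusted p = 0.0609 and 0.213, and 0.000644 and 0.00304 with the experiment as a block). Cdkn2c had 580.1, 641.1 and 881.0 in arginine-deficient tumor cells, against 2058.8, 2140.1 and 1591.8 in arginine-sufficient tumor cells, and 1265.4, 1285.0 and 984.7 in arginine-deficient normal cells, against 1559.4, 1382.0 and 987.5 in arginine-sufficient normal cells. Its fall in tumor cells passed (adjusted p = 0.00575), and its log2 change of -0.14 ± 0.22 in normal cells did not (adjusted p = 0.898). The difference between these changes was -1.34 ± 0.31 (adjusted p = 0.698).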
